A study of Homo sapiens with 42 samples.

Results

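Chromatin loops around TAL1 and LMO2, genes for 2 members of 1 haematopoietic transcription factor complex, were followed in K562 leukemia cells during 72 h of treatment with the phorbol ester PMA. A loop was counted here when either of its anchors started in chr1:46900000-47600000, which holds TAL1 and its neighbour STIL, or in chr11:33300000-34400000, which holds LMO2 and its neighbour CAPRIN1 (hg38). This gave 39 of the 33914 loops in the table. The TAL1 window held 12 loops of 40 to 660 kb, all with enough contacts for a test. The LMO2 window held 27 loops of 40 to 1060 kb, of which 26 could be tested. The loop names used here (loop557 and so on) are those of the deposited table.

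TAL1 is a basic helix-loop-helix factor that binds E-box sequences together with E proteins such as TCF3 and TCF12, and LMO2 is a LIM-only protein that binds no DNA itself but bridges TAL1 to LDB1 and to GATA factors. This complex occupies enhancers and promoters of erythroid and megakaryocytic genes, and both TAL1 and LMO2 are activated by chromosomal rearrangement in T-cell leukemia. STIL is a centriole duplication protein whose gene lies next to TAL1 and is joined to it by a recurrent deletion in that leukemia, and CAPRIN1 is an RNA-binding protein of stress granules. PDZK1IP1, a small membrane protein, is encoded on the other side of TAL1.

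In situ Hi-C ligates neighbouring DNA ends inside fixed nuclei, and a sequenced pair of joined ends is counted as a contact of the loci they came from. The 3 groups were wild-type K562, an established human leukemia line, kept in medium with serum and given 25 nM PMA for 0 h, 6 h or 72 h, with 4 biological replicates each. PMA drives these cells toward a megakaryocyte-like state, and all values come from this single line. Libraries held between 849895 and 1472197 contacts in loops at 0 h, between 736929 and 1090199 at 6 h and between 988726 and 1181057 at 72 h. Sampling noise covered the difference between replicates 3 and 4 of 72 h (chi-square per degree of freedom 1.003), so they count as 1 sample in each mean ± SD and n = 3 at 72 h, while the fits kept both libraries. Replicates 3 and 4 were nearly as alike at 0 h (1.019) and at 6 h (1.023), where they count separately and n = 4. Normalized counts below are contacts between the anchors of a loop (10 kb each) per 1000000 contacts in tested loops after TMM scaling, with no subtraction of local background. Adjusted p-values are from edgeR's quasi-likelihood test over all 24132 tested loops, with a threshold of 0.05. The comparisons of 6 h and of 72 h share the 0 h libraries.

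No anchor of any loop held the start of TAL1, STIL or CAPRIN1 as RefSeq places it (GRCh38.p14). Of the loops that enclose TAL1, loop558 had a left anchor that held the start of PDZK1IP1 and a right anchor inside STIL. To show that start beside those of the enclosed gene, the 250 bases before the start of PDZK1IP1 and before both RefSeq starts of TAL1 are given 5′ to 3′ on the strand of the gene, which is the minus strand for both. These sequences were chosen after the loop values were seen. Capitals mark TTATCT, the reverse complement of the GATA motif AGATAA.
PDZK1IP1, chr1:47190037-47190286: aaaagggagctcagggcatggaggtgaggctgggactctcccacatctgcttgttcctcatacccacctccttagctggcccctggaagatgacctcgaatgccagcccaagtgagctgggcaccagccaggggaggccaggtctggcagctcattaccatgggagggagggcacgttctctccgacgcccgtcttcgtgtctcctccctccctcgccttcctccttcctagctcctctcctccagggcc
TAL1, first start, chr1:47231716-47231965: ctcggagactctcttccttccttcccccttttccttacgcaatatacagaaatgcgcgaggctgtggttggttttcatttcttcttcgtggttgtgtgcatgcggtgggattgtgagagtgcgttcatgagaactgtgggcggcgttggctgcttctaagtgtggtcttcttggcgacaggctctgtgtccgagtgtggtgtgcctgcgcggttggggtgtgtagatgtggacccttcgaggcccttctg
TAL1, second start, chr1:47232336-47232585: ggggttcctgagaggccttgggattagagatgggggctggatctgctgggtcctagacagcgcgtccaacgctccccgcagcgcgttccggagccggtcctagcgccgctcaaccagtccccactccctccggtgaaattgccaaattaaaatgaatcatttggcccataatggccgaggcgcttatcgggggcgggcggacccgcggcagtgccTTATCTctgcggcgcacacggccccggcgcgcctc

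The second TAL1 start had 1 AGATAA match and 1 E-box (CANNTG), the first had neither, and PDZK1IP1 had 2 E-boxes and no AGATAA match. Both strands were searched. Of 35114 RefSeq promoter windows of the same length, 9.17% held AGATAA, 61.8% held CANNTG and 1.63% held a composite of an E-box end and GATA, whose letters can overlap both and which none of these 3 windows held. A match is a match of letters only.

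The short loops over TAL1 weakened during treatment, while the other loops of its window mostly did not pass the test. At 6 h, 1 of 12 loops of the TAL1 window was lower and none was higher than at 0 h, against 6.41% of all tested loops that changed (4.07% lower, 2.34% higher). At 72 h, 2 were lower and 2 higher than at 0 h, which is 33.3% of the window against 33.6% of all tested loops (16.9% lower, 16.7% higher). From 6 h to 72 h, 1 of 12 was lower, against 20.5% of all tested loops that changed (9.81% lower, 10.7% higher). The median log2 fold change of the window was 0.22 at 6 h and -0.03 at 72 h, and that of all tested loops was 0.01 at both. The share of changed loops at 72 h was thus near the background and is no result about the window. These counts rest on single libraries. At 6 h the count was 0 when replicate 1 or 4 of 0 h or replicate 1 or 2 of 6 h was left out, and 2 when replicate 4 of 6 h was left out. At 72 h it was 2 (both lower) when replicate 2 or 4 of 0 h or replicate 4 of 72 h was left out. Between 6 h and 72 h it was 2 when replicate 2 or 4 of 6 h or replicate 4 of 72 h was left out.

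**Figure D1:**
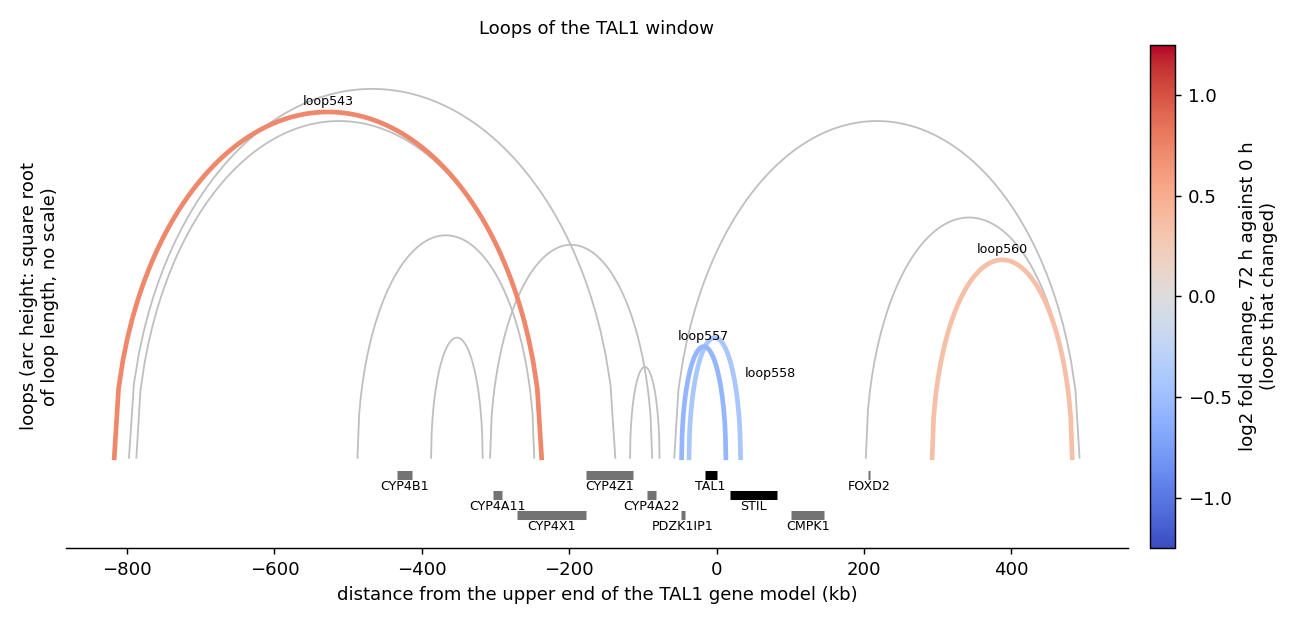
Loops of the TAL1 window as arcs between anchor centres, against the distance in kb from the upper end of the TAL1 gene model; arc height follows the square root of loop length. Thick coloured arcs are the 4 loops that changed at 72 h against 0 h, coloured by log2 fold change, and thin grey arcs are tested loops that did not pass the test; loop557 (-0.57) and loop558 (-0.42) enclose TAL1.

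Loop557 spans 60 kb from chr1:47180001-47190000, which holds the lower end of PDZK1IP1, to chr1:47240001-47250000, between TAL1 and STIL, and so encloses all of TAL1 (chr1:47216290-47232335). Its normalized counts were 161.5, 146.2, 170.6 and 154.6 in the 0 h libraries (mean 158.2 ± 10.35, SD, n = 4). At 6 h they were 128.4, 113.1, 131.6 and 136.3 (127.4 ± 10.06, n = 4), and at 72 h they were 103.5, 109.4, 103 and 108 (106.1 ± 3.017, n = 3). Every 0 h library was above every 6 h library, and every 6 h library above every 72 h library. The loop fell 1.24-fold by 6 h (log2 fold change -0.31, SE 0.10, edgeR adjusted p = 0.043) and 1.48-fold by 72 h (-0.57, SE 0.10, adjusted p = 3.8e-06). The difference between 72 h and 6 h did not pass the test (-0.25, SE 0.11, edgeR adjusted p = 0.085). The call at 72 h held in all 24 alternatives that gave it a value, with adjusted p from 1.4e-07 to 0.004. Over these alternatives the log2 fold change at 72 h ranged from -0.64 to -0.39, against -0.57 as reported. The call at 6 h held in 12 of 24 and was lost when replicate 1 (edgeR adjusted p = 0.113), 3 (0.117) or 4 (0.0614) of 0 h or replicate 1 (0.078) or 2 (0.166) of 6 h was left out. It was also lost with a correction for loop length (-0.17, edgeR adjusted p = 0.331). The difference between 72 h and 6 h passed in 1, without 6 h replicate 2 (edgeR adjusted p = 0.0365).

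Loop558 spans 70 kb from chr1:47190001-47200000, which holds the upper end of PDZK1IP1 (the start shown above), to chr1:47260001-47270000, inside the STIL gene model (chr1:47250139-47314896), and also encloses TAL1. It was among the strongest loops of the table: its level stood at percentile 99.7 of all tested loops and at percentile 99.3 of the 552 tested loops of the same length. Its normalized counts were 276.7, 221.2, 239.6 and 239.9 at 0 h (244.3 ± 23.25, n = 4) and 262.8, 207.5, 225 and 266.6 at 6 h (240.5 ± 28.92, n = 4). At 72 h they were 177.8, 185.7, 184.1 and 184.8 (182.7 ± 4.245, n = 3). The 0 h and 6 h libraries overlapped, and every 72 h library was below all of them. The loop did not pass the test at 6 h (log2 fold change -0.03, SE 0.09, edgeR adjusted p = 0.89) and fell 1.34-fold from 0 h to 72 h (-0.42, SE 0.09, adjusted p = 9.2e-05). Between 6 h and 72 h it fell 1.31-fold (-0.39, SE 0.09, edgeR adjusted p = 0.00098), a call that was lost in replicates 1 and 2 alone (adjusted p = 0.0596). With a correction for loop length the log2 fold change at 72 h against 0 h was -0.26 (edgeR adjusted p = 0.00899).

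At 6 h loop557 passed the test and loop558 did not, and whether their courses differ was not tested. Replicates 1 and 2 were made from 3 technical replicates each and replicates 3 and 4 from 2 that were sequenced 2 times, so both loops were also compared within each pair, an alternative added after the data were seen. At 72 h against 0 h, loop557 had a log2 fold change of -0.55 in replicates 1 and 2 (edgeR adjusted p = 0.004) and of -0.61 in replicates 3 and 4 (0.000353). Loop558 had -0.47 (edgeR adjusted p = 0.00538) and -0.38 (0.0078). At 6 h, loop557 had -0.36 (edgeR adjusted p = 0.178) and -0.27 (0.358), the same direction without a call.

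**Figure D2:**
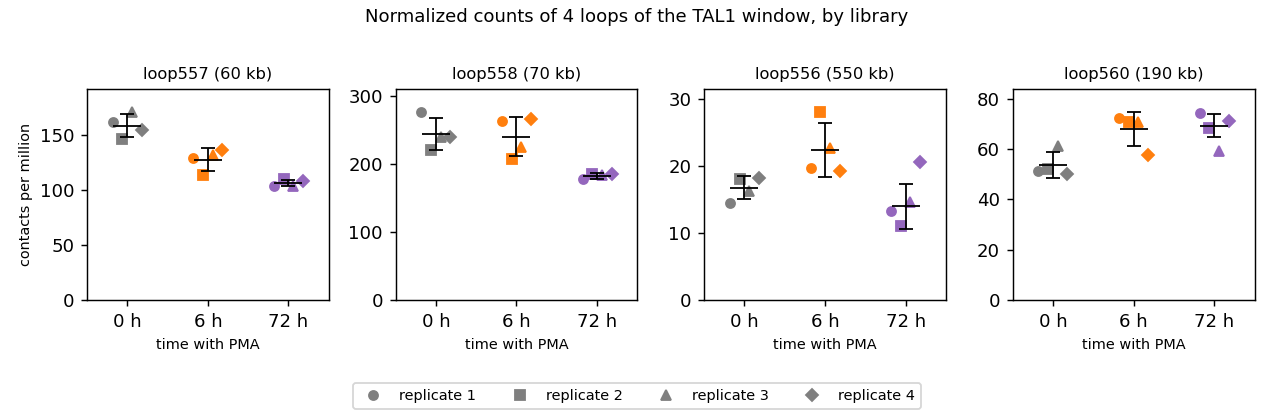
Normalized counts (contacts per 1000000) of 4 loops of the TAL1 window in each library at 0 h, 6 h and 72 h, with replicates 1 to 4 as symbols and the mean ± SD as bars (n = 4, 4 and 3). Loop557 falls from 158.2 to 106.1, loop558 goes from 244.3 at 0 h and 240.5 at 6 h to 182.7 at 72 h, and the libraries of loop556 and loop560 at 72 h overlap those at 0 h.

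Together, loop557 and loop558 held 0.038 ± 0.0025% of the contacts in all loops at 0 h (n = 4), 0.03546 ± 0.0032% at 6 h (n = 4) and 0.02789 ± 0.00085% at 72 h (n = 3). Their highest 72 h library (0.02854%) was below their lowest at 6 h (0.03146%) and 0 h (0.03511%). The other 10 loops of the window held 0.0384 ± 0.0023%, 0.04372 ± 0.0037% and 0.04152 ± 0.00036%, with libraries that overlapped between the times. The whole window held 0.0764 ± 0.0015% at 0 h, 0.07917 ± 0.0022% at 6 h and 0.06942 ± 0.0011% at 72 h. These sums describe the window and carry no test.

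Loop556, the third loop over TAL1, reaches 550 kb from chr1:47170001-47180000 to chr1:47720001-47730000 and encloses TAL1 and STIL. It gave 14.48, 18.04, 16.31 and 18.19 at 0 h, 19.61, 28.04, 22.64 and 19.3 at 6 h, and 13.27, 11.04, 14.56 and 20.53 at 72 h. The 6 h libraries lay above all 0 h libraries, and the 72 h libraries overlapped both, but no comparison passed the test (edgeR adjusted p = 0.28 at 6 h, 0.7 at 72 h and 0.07 from 6 h to 72 h). Such separation of 6 h from 0 h libraries was seen in 2 of the 12 loops, 16.7%, against 10.7% of all tested loops.

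Loop560 and loop543 rose at 72 h, and neither has TAL1 or STIL at or between its anchors. Loop560 runs 190 kb from chr1:47520001-47530000 to chr1:47710001-47720000, beyond FOXD2, a forkhead factor, and no coding gene lies at its anchors. It gave 51.42, 52.21, 61.47 and 50.03 at 0 h (53.78 ± 5.203, n = 4), 72.55, 71.02, 70.76 and 57.91 at 6 h (68.06 ± 6.814, n = 4), and 74.31, 68.27, 59.28 and 71.41 at 72 h (69.31 ± 4.572, n = 3). Most treated libraries were higher, with overlap through 1 library at each time. At 6 h it did not pass the test (0.35, SE 0.14, edgeR adjusted p = 0.11). At 72 h it rose 1.28-fold (log2 fold change 0.35, SE 0.13, edgeR adjusted p = 0.031). That call held in 12 of 24 alternatives and was lost without 0 h replicate 1 (adjusted p = 0.108), 2 (0.072) or 4 (0.0842) and without 72 h replicate 1 (0.104), 2 (0.0587) or 4 (0.079), in edgeR. Within replicates 1 and 2 its log2 fold change was 0.44 (edgeR adjusted p = 0.0708), and within replicates 3 and 4 it was 0.24 (0.407).

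Loop543 runs 580 kb from the end of FAAH, a fatty acid amide hydrolase, to the inside of CYP4X1, a cytochrome P450 gene. Its normalized counts were 13.04, 6.646, 18.82 and 6.822 at 0 h (11.33 ± 5.809, n = 4), 16.67, 18.69, 16.98 and 21.72 at 6 h (18.51 ± 2.312, n = 4), and 19.46, 11.04, 22.88 and 25.89 at 72 h (18.3 ± 6.746, n = 3). It had between 6 and 29 raw contacts a library, and for 6 contacts the exact 95% Poisson interval is 2.2 to 13.1, which covers counting error only. The groups overlapped. It rose 1.66-fold by 72 h (log2 fold change 0.73, SE 0.24, edgeR adjusted p = 0.011), a call that was lost when replicate 2 (adjusted p = 0.0777) or 4 (0.0571) of 0 h or replicate 4 of 72 h (0.0817) was left out. Within replicates 1 and 2 the log2 fold change was 0.51 (edgeR adjusted p = 0.3), and within replicates 3 and 4 it was 0.85 (0.0497). At 6 h it was 0.63 (SE 0.25, edgeR adjusted p = 0.11), which passed without 0 h replicate 3 (0.85, adjusted p = 0.0464).

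Loop559 ties FOXD2 to the right anchor of loop560. It gave 70.71 ± 5.023 at 0 h (n = 4), 88.39 ± 14.94 at 6 h (n = 4) and 72.41 ± 3.063 at 72 h (n = 3), with no call (edgeR adjusted p = 0.1 at 6 h and 0.81 at 72 h). The 6 loops not yet named lie over or beside the CYP4 genes, a cluster of fatty acid hydroxylases, and none was called in any comparison. Their log2 fold changes ranged from -0.25 (loop554, from CYP4A11 to CYP4A22) to 0.52 (loop544) at 6 h and from -0.16 (loop554) to 0.22 (loop551) at 72 h.

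The LMO2 window held rises and falls in the same stretch, and several of the called loops shared an anchor. At 6 h, 3 of its 26 tested loops were higher and none lower than at 0 h (11.5%, against 6.41% of all tested loops). At 72 h, 5 were higher and 4 lower than at 0 h (34.6%, against 33.6%), which is near the background. From 6 h to 72 h, 4 were higher and 4 lower (30.8%, against 20.5%). The libraries did not overlap in 4 loops at 6 h (15.4%, against 10.7% of all tested loops), in 8 at 72 h (30.8%, against 28.3%) and in 4 from 6 h to 72 h (15.4%, against 19.8%). Median log2 fold changes were 0.04, -0.00 and 0.01. The count at 6 h was 0 without 0 h replicate 1 and 1 without 0 h replicate 3 or 6 h replicate 4. The count from 6 h to 72 h was 4 without 6 h replicate 2 and 5 without 6 h replicate 4 or 72 h replicate 1. The window held 0.1123 ± 0.003% of all contacts at 0 h (n = 4), 0.1138 ± 0.0037% at 6 h (n = 4) and 0.113 ± 0.0032% at 72 h (n = 3), so that its sum differed by less than the spread between replicates.

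**Figure D3:**
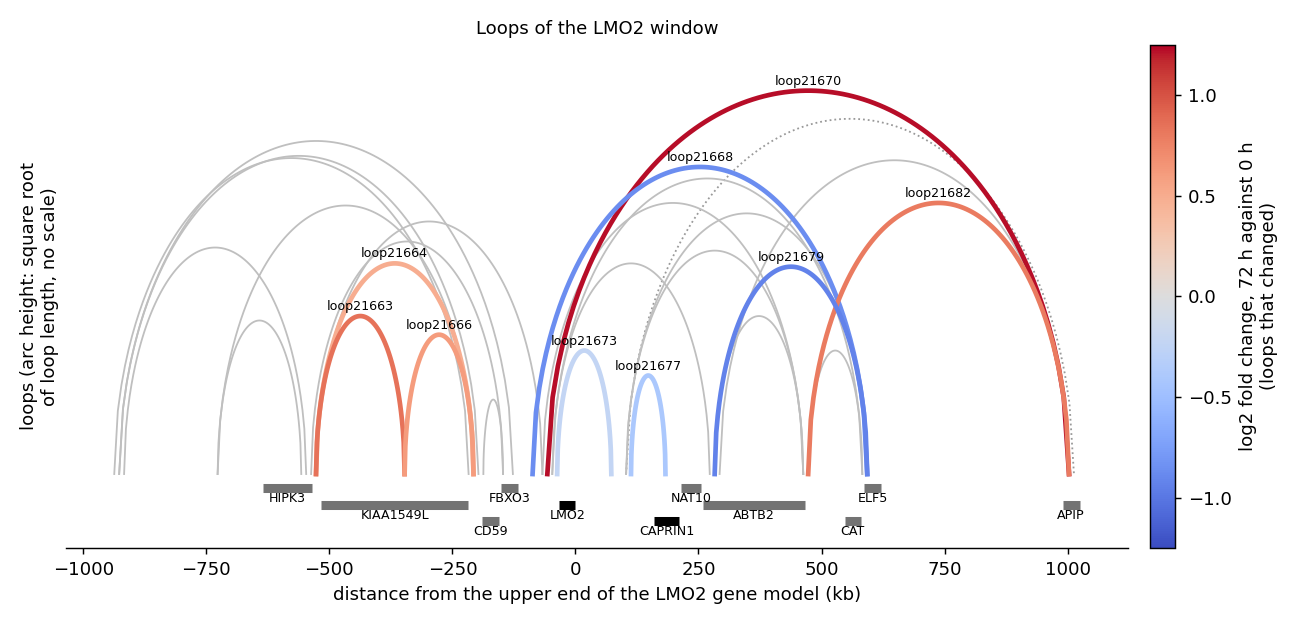
Loops of the LMO2 window as arcs between anchor centres, against the distance in kb from the upper end of the LMO2 gene model; arc height follows the square root of loop length. Thick coloured arcs are the 9 loops that changed at 72 h against 0 h, coloured by log2 fold change, thin grey arcs are tested loops that did not pass the test, and the dotted arc is the untested loop21676; rises lie over KIAA1549L and toward APIP, and falls lie at LMO2, CAPRIN1 and between ABTB2 and ELF5.

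Loop21673 is the only loop of both windows with an end of LMO2 in an anchor. It runs 110 kb from chr11:33850001-33860000, which holds the lower end of LMO2 (chr11:33858576-33892076), to chr11:33960001-33970000, and its level stood at percentile 98.9 of all tested loops. Its normalized counts were 197, 187, 188.2 and 167.1 at 0 h (184.8 ± 12.61, n = 4), 170.6, 151.4, 155.7 and 160.5 at 6 h (159.5 ± 8.257, n = 4), and 177.8, 153.6, 148.7 and 150.9 at 72 h (160.4 ± 15.2, n = 3). Most treated libraries lay below the 0 h libraries, and 1 library at each treated time overlapped them. At 6 h the difference did not pass the test (log2 fold change -0.22, SE 0.10, edgeR adjusted p = 0.18). At 72 h the loop fell 1.17-fold (-0.23, SE 0.10, edgeR adjusted p = 0.049), just inside the threshold. This call held in 10 of 24 alternatives, over which the adjusted p ranged from 0.015 to 0.32. Among the losses were a scaling to total counts (-0.18, edgeR adjusted p = 0.116), a correction for loop length (-0.12, 0.322) and 72 h replicates 3 and 4 summed (-0.23, 0.069). It was also lost without 0 h replicate 1 (edgeR adjusted p = 0.134), 2 (0.0512) or 3 (0.0684) and without 72 h replicate 2 (0.0917), 3 (0.107) or 4 (0.11). Within replicates 1 and 2 the log2 fold change was -0.22 (edgeR adjusted p = 0.248), and within replicates 3 and 4 it was -0.24 (0.154).

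The 5 loops that enclose LMO2 (loop21668 to loop21672) start in neighbouring anchors between chr11:33800001 and chr11:33850000 and reach past CAPRIN1 to different partners. Their directions differed. Loop21671 and loop21672 share their left anchor, chr11:33840001-33850000. Loop21671 ends 320 kb away inside ABTB2, a gene for a BTB domain protein, and loop21672 ends 630 kb away between CAT, which encodes catalase, and ELF5, an epithelial ETS factor.

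Loop21671 gave 23.9, 24.68, 23.83 and 25.01 at 0 h (24.36 ± 0.583, n = 4), 33.34, 39.25, 29.72 and 31.37 at 6 h (33.42 ± 4.16, n = 4), and 14.15, 14.05, 23.92 and 18.75 at 72 h (16.51 ± 4.173, n = 3). All 6 h libraries were above all others, and 1 of the 72 h libraries overlapped the 0 h range. The loop fell 1.83-fold from 6 h to 72 h (log2 fold change -0.87, SE 0.20, edgeR adjusted p = 0.00047). Against 0 h it passed neither at 6 h (0.45, SE 0.19, edgeR adjusted p = 0.14) nor at 72 h (-0.43, SE 0.20, adjusted p = 0.094), though without 72 h replicate 3 it was lower at 72 h (-0.58, adjusted p = 0.0366). The log2 fold change between 6 h and 72 h was -1.27 within replicates 1 and 2 (edgeR adjusted p = 0.000693) and -0.49 within replicates 3 and 4 (0.273).

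Loop21672 gave 13.76, 11.39, 15.05 and 15.92 at 0 h (14.03 ± 1.97, n = 4), 19.61, 27.1, 15.57 and 32.57 at 6 h (23.71 ± 7.598, n = 4), and 7.962, 12.05, 18.72 and 21.42 at 72 h (13.36 ± 6.161, n = 3). The 6 h libraries were high on average but overlapped both other times. It rose 1.64-fold by 6 h (log2 fold change 0.71, SE 0.23, edgeR adjusted p = 0.039) and fell 1.53-fold from 6 h to 72 h (-0.61, SE 0.22, adjusted p = 0.038). The rise was lost without 0 h replicate 1 (edgeR adjusted p = 0.116), 2 (0.111) or 3 (0.0585) and without 6 h replicate 2 (0.143) or 4 (0.193). The fall was lost without 6 h replicate 2 (edgeR adjusted p = 0.106) or 4 (0.179) and without 72 h replicate 1 (0.225) or 2 (0.106). Within replicates 1 and 2 the fall was -1.12 on the log2 scale (edgeR adjusted p = 0.0159), and within replicates 3 and 4 it was -0.27 (0.625).

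Loop21665 was also highest at 6 h, and it ends in an anchor on the lower side of LMO2. It runs 460 kb from chr11:33360001-33370000 to chr11:33820001-33830000. It gave 23.9, 29.43, 20.07 and 28.43 at 0 h (25.46 ± 4.321, n = 4), 42.16, 41.12, 43.87 and 39.81 at 6 h (41.74 ± 1.714, n = 4), and 21.23, 20.08, 36.4 and 27.67 at 72 h (24.45 ± 6.596, n = 3). Every 6 h library was above every 0 h and 72 h library. The loop rose 1.58-fold by 6 h (log2 fold change 0.66, SE 0.18, edgeR adjusted p = 0.01), a call that held in 18 of 23 alternatives and was lost without 0 h replicate 1 (adjusted p = 0.0618). It fell 1.55-fold from 6 h to 72 h (-0.63, SE 0.18, edgeR adjusted p = 0.0051), and 72 h against 0 h did not pass (0.03, adjusted p = 0.92). Within replicates 1 and 2 it had 0.62 at 6 h (edgeR adjusted p = 0.127) and -0.96 from 6 h to 72 h (0.00529), and within replicates 3 and 4 it had 0.72 (0.17) and -0.37 (0.346).

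Loop21668 and loop21670 moved in opposite directions by 72 h. Loop21668 runs 680 kb to the inside of ELF5 and gave 16.66, 20.89, 20.07 and 30.7 at 0 h (22.08 ± 6.032, n = 4), 12.75, 20.56, 16.98 and 16.89 at 6 h (16.79 ± 3.194, n = 4), and 9.731, 7.027, 14.56 and 12.5 at 72 h (10.1 ± 3.266, n = 3). All its 72 h libraries were below all 0 h libraries. It fell 1.81-fold by 72 h (log2 fold change -0.86, SE 0.23, edgeR adjusted p = 0.0021), a call that held in all 24 alternatives that gave it a value (within replicates 1 and 2 with adjusted p = 0.0269, and within 3 and 4 with 0.0464).

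Loop21670 is the longest loop of both windows, 1060 kb to the inside of APIP, an enzyme of methionine salvage, and its counts were very low. The raw contacts were 1, 5, 2 and 6 at 0 h, 4, 5, 11 and 15 at 6 h, and 7, 14, 15 and 9 at 72 h. For 1 contact the exact 95% Poisson interval is 0.0 to 5.6. All 72 h counts were above the 0 h counts, though the normalized libraries overlapped (6.192 at the lowest at 72 h and 6.822 at the highest at 0 h). No 0 h library reached the filter's minimum count of 10, so loop21670 entered the test only through treated libraries. That selection favours a rise. The loop rose 2.16-fold by 6 h (log2 fold change 1.11, SE 0.35, edgeR adjusted p = 0.035) and 2.34-fold by 72 h (1.23, SE 0.34, adjusted p = 0.0022). Both calls were lost without 0 h replicate 1 (edgeR adjusted p = 0.265 at 6 h and 0.053 at 72 h), and the call at 6 h was also lost without 0 h replicate 3 (0.0794) or 6 h replicates 3 (0.143) or 4 (0.274). Within replicates 3 and 4 alone the log2 fold change at 72 h was 0.97 (edgeR adjusted p = 0.114), and replicates 1 and 2 alone left it too few counts for a test. Loop21669, the fifth of these loops, gave 27.59 ± 5.855 at 0 h (n = 4), 22.81 ± 4.82 at 6 h (n = 4) and 27.67 ± 1.316 at 72 h (n = 3), with no call.

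Loop21677 has its right anchor inside CAPRIN1 (chr11:34051731-34102610) and its left anchor 70 kb away at chr11:34000001-34010000. It gave 86.18, 80.7, 74.01 and 77.32 at 0 h (79.55 ± 5.195, n = 4), 72.55, 84.11, 62.27 and 61.53 at 6 h (70.11 ± 10.6, n = 4), and 62.81, 58.23, 54.08 and 64.27 at 72 h (60.07 ± 2.418, n = 3). Every 72 h library was below every 0 h library, and the 6 h libraries overlapped both. It fell 1.33-fold by 72 h (log2 fold change -0.41, SE 0.13, edgeR adjusted p = 0.0077) and did not pass at 6 h (-0.17, SE 0.13, adjusted p = 0.48). The call was lost with a correction for loop length (-0.25, edgeR adjusted p = 0.126) and within replicates 3 and 4 (-0.34, 0.182), and it held within replicates 1 and 2 (-0.47, 0.0405).

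**Figure D4:**
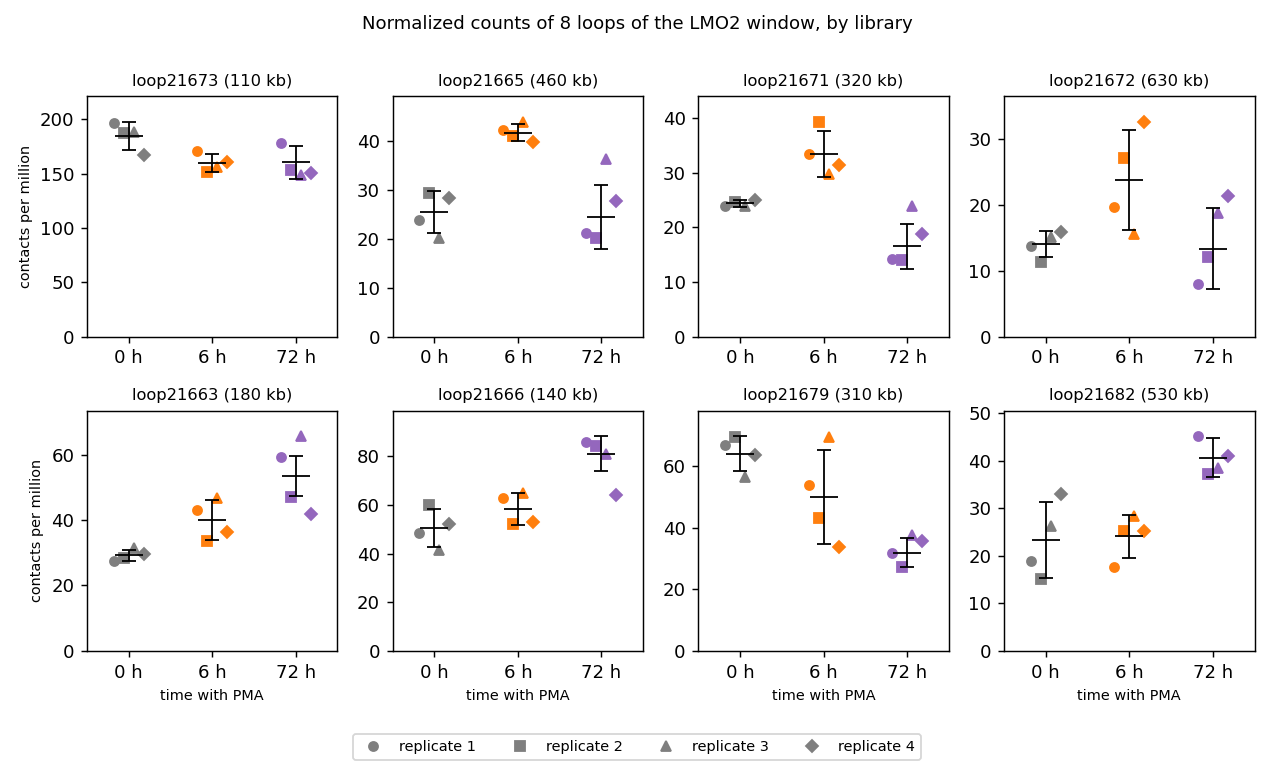
Normalized counts (contacts per 1000000) of 8 loops of the LMO2 window in each library at 0 h, 6 h and 72 h, with replicates 1 to 4 as symbols and the mean ± SD as bars (n = 4, 4 and 3). Loop21665 is highest at 6 h in every library (39.81 to 43.87), loop21663, loop21666 and loop21682 are highest at 72 h, and loop21679 falls from 64.01 to 31.84.

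Of the 5 rises of the window at 72 h against 0 h, 3 lay over KIAA1549L (chr11:33376108-33674102), where 3 anchors at chr11:33360001-33370000, chr11:33540001-33550000 and chr11:33680001-33690000 are joined to each other by loop21663, loop21664 and loop21666. All 3 were higher at 72 h than at 0 h and than at 6 h, in comparisons that share the 72 h libraries, and none passed at 6 h. Since each pair of these loops shares an anchor, they are not 3 independent observations.

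Loop21663 (180 kb) gave 27.52, 28.48, 31.36 and 29.56 at 0 h (29.23 ± 1.647, n = 4), 43.14, 33.64, 46.7 and 36.19 at 6 h (39.92 ± 6.045, n = 4), and 59.27, 47.18, 65.52 and 41.95 at 72 h (53.4 ± 6.05, n = 3). All 6 h and 72 h libraries were above all 0 h libraries. It rose 1.78-fold by 72 h (log2 fold change 0.84, SE 0.16, edgeR adjusted p = 1.1e-05), in all 24 alternatives, and 1.33-fold from 6 h to 72 h (0.41, SE 0.15, adjusted p = 0.042). The second call held in 13 of 24 alternatives and was lost without 6 h replicate 1 (edgeR adjusted p = 0.0547), 2 (0.168) or 4 (0.11) and without 72 h replicate 1 (0.135) or 3 (0.189). At 6 h it had 0.42 (SE 0.18, edgeR adjusted p = 0.13).

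Loop21666 (140 kb) gave 48.52, 59.81, 41.4 and 52.3 at 0 h (50.51 ± 7.674, n = 4), 62.75, 52.33, 65.1 and 53.08 at 6 h (58.32 ± 6.552, n = 4), and 85.81, 84.33, 81.12 and 64.27 at 72 h (80.94 ± 7.183, n = 3). The 72 h libraries were above all 0 h libraries. It rose 1.53-fold by 72 h (log2 fold change 0.61, SE 0.13, edgeR adjusted p = 0.0001), in all 24 alternatives, and 1.35-fold from 6 h to 72 h (0.43, SE 0.13, adjusted p = 0.013). The second call was lost without 6 h replicate 2 (edgeR adjusted p = 0.0607) or 72 h replicate 1 (0.0556).

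Loop21664 (320 kb) gave 60.84, 66.46, 72.76 and 57.99 at 0 h (64.51 ± 6.529, n = 4), 96.08, 65.42, 49.53 and 60.32 at 6 h (67.84 ± 19.96, n = 4), and 84.04, 88.35, 92.56 and 98.19 at 72 h (89.25 ± 5.721, n = 3). The 72 h libraries were above all 0 h libraries, while the 6 h libraries scattered over both ranges. It rose 1.40-fold by 72 h (log2 fold change 0.49, SE 0.13, edgeR adjusted p = 0.0011) and 1.30-fold from 6 h to 72 h (0.38, SE 0.13, adjusted p = 0.024). The second call was lost without 6 h replicate 2 (edgeR adjusted p = 0.0742), 3 (0.149) or 4 (0.0993) and without 72 h replicate 3 (0.0503) or 4 (0.0819).

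The 3 loops were also compared within pairs of replicates. At 72 h against 0 h, loop21663 had 0.88 in replicates 1 and 2 (edgeR adjusted p = 0.00108) and 0.75 in replicates 3 and 4 (0.0127). Loop21666 had 0.64 (edgeR adjusted p = 0.00425) and 0.59 (0.0223). Loop21664 had 0.42 (edgeR adjusted p = 0.067) and 0.54 (0.0157), so that its call was lost in replicates 1 and 2. From 6 h to 72 h, loop21663 was called in neither pair (0.46, edgeR adjusted p = 0.142, in replicates 1 and 2, and 0.35, 0.332, in replicates 3 and 4). Loop21666 had 0.55 (edgeR adjusted p = 0.0319) and 0.29 (0.353), and loop21664 had 0.09 (0.795) and 0.76 (0.00315), so that each was called in 1 pair only. Loop21661 ends in the same anchor at chr11:33680001-33690000 from CSTF3, a subunit of the cleavage stimulation factor, and did not pass at 72 h (0.45, SE 0.19, edgeR adjusted p = 0.051), with all 72 h libraries above all 0 h libraries. Loop21665 starts in the same anchor as loop21663 and loop21664. It did not pass at 72 h against 0 h (0.03, edgeR adjusted p = 0.92) and fell from 6 h to 72 h (-0.63, 0.0051).

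On the far side of LMO2, a fall and a rise met around the end of ABTB2 (chr11:34150987-34358010). Loop21679 runs 310 kb from chr11:34170001-34180000, inside ABTB2, to chr11:34480001-34490000, inside ELF5. It gave 66.63, 69.3, 56.45 and 63.67 at 0 h (64.01 ± 5.542, n = 4), 53.93, 42.99, 69.34 and 33.78 at 6 h (50.01 ± 15.29, n = 4), and 31.85, 27.11, 37.44 and 35.71 at 72 h (31.84 ± 4.733, n = 3). The 72 h libraries were below all 0 h libraries, and the 6 h libraries spanned nearly the whole range. The loop fell 1.90-fold by 72 h (log2 fold change -0.93, SE 0.15, edgeR adjusted p = 2.3e-07), the smallest p of the window, and this held in all 24 alternatives. It also fell 1.46-fold from 6 h to 72 h (-0.55, SE 0.16, edgeR adjusted p = 0.0099). The 6 h values rest on replicate 3: without it the loop was lower at 6 h (-0.54, edgeR adjusted p = 0.0215, against -0.38 and 0.092 with it), and the fall from 6 h to 72 h no longer passed (-0.40, 0.0949). At 72 h it had -1.16 in replicates 1 and 2 (edgeR adjusted p = 3.98e-06) and -0.69 in replicates 3 and 4 (0.0151), and from 6 h to 72 h it had -0.68 (0.0349) and -0.43 (0.232).

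Loop21682 runs 530 kb from chr11:34360001-34370000, just past ABTB2, to chr11:34890001-34900000, inside APIP. It gave 18.83, 15.19, 26.34 and 32.97 at 0 h (23.33 ± 7.929, n = 4), 17.65, 25.23, 28.3 and 25.33 at 6 h (24.13 ± 4.549, n = 4), and 45.12, 37.15, 38.48 and 41.06 at 72 h (40.68 ± 4.062, n = 3). Every 72 h library was above every library of the other times. It rose 1.74-fold by 72 h (log2 fold change 0.80, SE 0.18, edgeR adjusted p = 0.00016) and 1.66-fold from 6 h to 72 h (0.73, SE 0.18, adjusted p = 0.0018). At 72 h it had 1.17 in replicates 1 and 2 (edgeR adjusted p = 0.000185) and 0.39 in replicates 3 and 4 (0.254), where the call was lost. From 6 h to 72 h it had 0.88 (edgeR adjusted p = 0.0109) and 0.54 (0.167).

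Of the loops that share an anchor with these, some moved the same way and others did not pass. At the right anchor of loop21679 (log2 fold change -0.93 at 72 h), loop21668 fell too (-0.86). Loop21675 ends there as well and did not pass (-0.11, edgeR adjusted p = 0.69). At the right anchor of loop21682 (0.80), loop21670 rose too (1.23), though it entered the test only through treated libraries. Loop21680 did not pass there (-0.11, edgeR adjusted p = 0.79). Loop21678 shares the left anchor of loop21679 and ends at ABTB2's own upper end, and it did not pass at 72 h (log2 fold change -0.12, edgeR adjusted p = 0.44). The log2 ratio of loop21679 to loop21678 within a library was -0.70 ± 0.21 at 0 h (n = 4), -1.11 ± 0.45 at 6 h (n = 4) and -1.61 ± 0.20 at 72 h (n = 3). All 72 h libraries were below all 0 h libraries in this ratio. Loop21681 shares the left anchor of loop21682 and ends at CAT and ELF5, and it did not pass at 72 h either (-0.21, edgeR adjusted p = 0.13). The log2 ratio of loop21682 to loop21681 was -2.28 ± 0.40 at 0 h (n = 4), -1.93 ± 0.34 at 6 h (n = 4) and -1.20 ± 0.09 at 72 h (n = 3), with all 72 h libraries above all 0 h libraries. These ratios describe loops at 1 anchor and carry no test. Each sets a loop called at 72 h over a loop that was not called, so separation of the libraries was favoured in advance. In most other pairs of loops on a shared anchor, the ratios at 72 h and 0 h overlapped. The 33 anchors of the LMO2 window include 15 that serve more than 1 loop, and of its 25 pairs of tested loops on a shared anchor 14 had log2 fold changes of the same sign at 72 h. The TAL1 window has 22 anchors, of which 2 are shared.

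**Figure D5:**
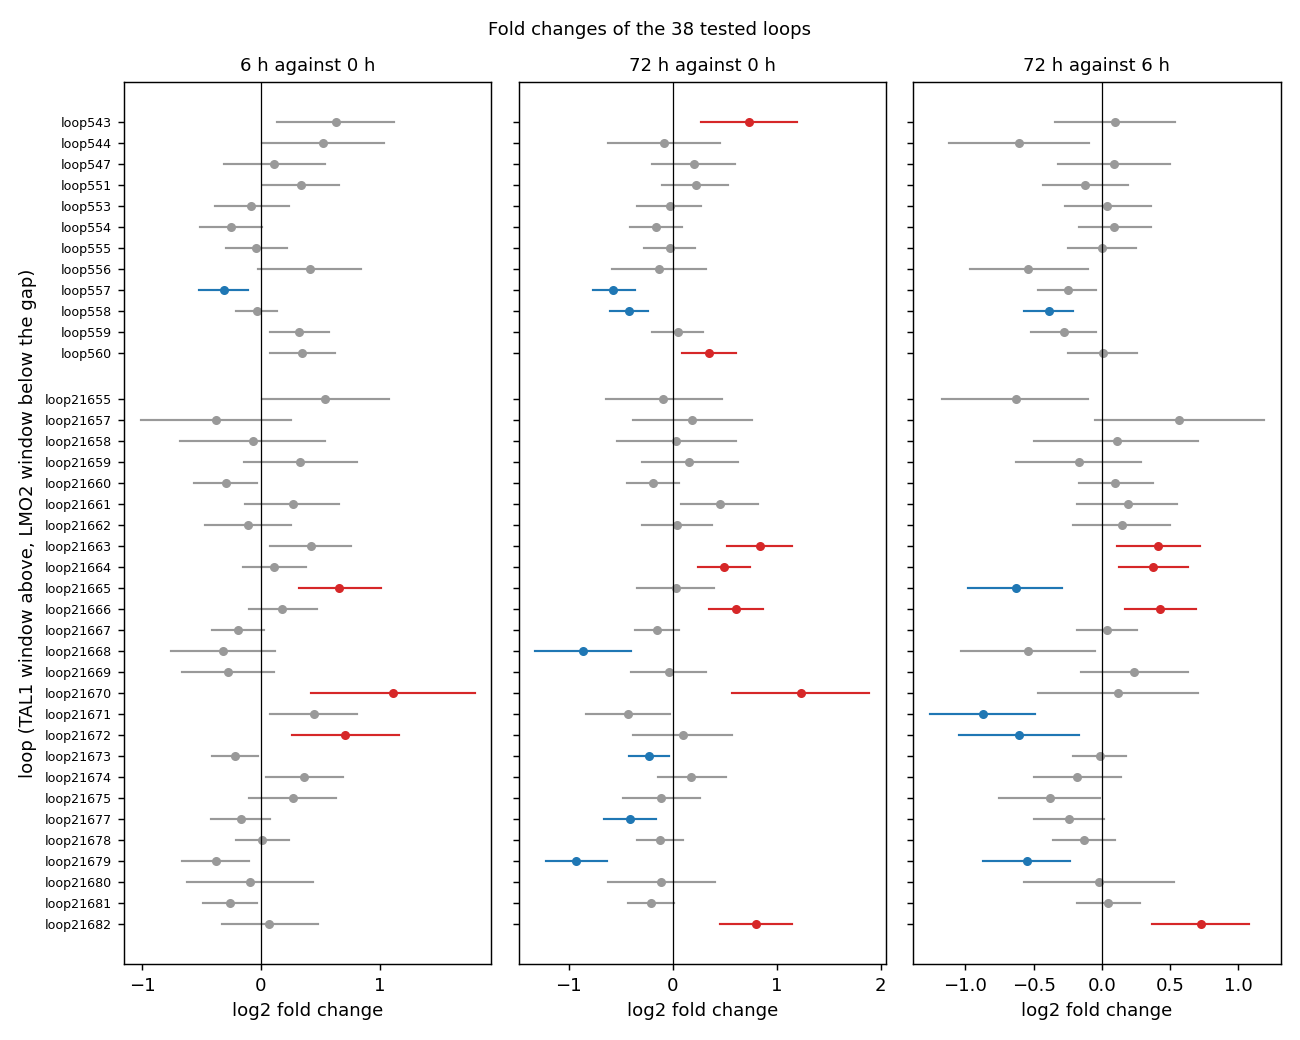
Log2 fold changes of the 38 tested loops at 6 h against 0 h, 72 h against 0 h and 72 h against 6 h, with 95% intervals from the SE; red loops were higher and blue loops lower at an edgeR adjusted p under 0.05, and grey loops did not pass. In the TAL1 window 4 loops changed at 72 h against 0 h, and in the LMO2 window 9 did, 5 of them higher.

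In at least 1 of the 3 comparisons, 12 of the 26 tested loops of the LMO2 window (46.2%) and 4 of the 12 of the TAL1 window (33.3%) were called, against 41.2% of all tested loops. The 14 loops of the LMO2 window called in no comparison include loop21667, a 40 kb loop from CD59, an inhibitor of complement, to FBXO3, an F-box protein, with 119 ± 9.564 at 0 h (n = 4), 105.6 ± 7.048 at 6 h (n = 4) and 108.8 ± 3.958 at 72 h (n = 3). Loop21676, 910 kb long, had too few contacts for a test: 2, 5, 3 and 5 raw contacts at 0 h, 13, 6, 6 and 9 at 6 h, and 11, 11, 8 and 8 at 72 h. All its treated libraries were above all 0 h libraries in raw contacts.

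Loops elsewhere with the most similar profile over the 12 libraries were found by Pearson correlation of log2 normalized counts among 24094 tested loops outside both windows. For loop557 these were loop21242 at LRRC27 on chromosome 10 (r = 0.983), loop31026 at OPA3 and VASP on chromosome 19 (r = 0.973) and loop32949 on chromosome X (r = 0.971), with log2 fold changes at 72 h of -1.07, -0.70 and -0.65. For loop21679 they were loop2059 at HJV, the hemojuvelin gene, on chromosome 1 (r = 0.961), loop16614 on chromosome 7 (r = 0.944) and loop26677 at GEMIN2, PNN and TRAPPC6B on chromosome 14 (r = 0.939), with -1.05, -0.61 and -0.86. They are the highest of many correlations over libraries that share their depth and scaling, and are given as a description.

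Genes of the complex and of other blood cell factors (RUNX1, ERG and FLI1) were read at loops that have an end of the gene in an anchor. Of 15 genes (TAL1, LMO2, LDB1, GATA1, GATA2, TCF3, TCF12, LYL1, CBFA2T3, SSBP2, SSBP3, SSBP4, RUNX1, ERG and FLI1), 8 had a tested loop, with 15 tested loops in all. At 72 h against 0 h, 1 was higher and 6 lower, where 16.7% of all tested loops were higher and 16.9% lower. At 6 h none was higher and 4 were lower, against 2.34% and 4.07% of all tested loops. The medians were -0.22 and -0.21, against 0.01 for all tested loops. Between 6 h and 72 h, 1 was higher and 1 lower, against 10.7% and 9.81%. The list was chosen with earlier results of these data known, so its direction is a description.

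The lower loops at 72 h were, beside loop21673 at LMO2, 1 loop at LYL1, a close relative of TAL1, 1 at SSBP2 and 3 at SSBP4, both of which encode proteins that bind LDB1. The 3 loops at SSBP4 share the anchor at chr19:18400001 and are not independent observations. The lower LYL1 loop (loop30701) went from 189.7 normalized counts at 0 h to 143.5 at 6 h and 135 at 72 h (means). It fell at 6 h (log2 fold change -0.42, edgeR adjusted p = 0.0029) and at 72 h (-0.52, adjusted p = 8.1e-06). The lower SSBP2 loop (loop11635) fell by 0.68 on the log2 scale at 72 h (edgeR adjusted p = 6.7e-06), and the 3 SSBP4 loops fell by 0.57, 0.86 and 0.61. The higher loop was at ERG, an ETS factor of megakaryocytes and blood stem cells (loop32230): it rose from 11.32 normalized counts at 0 h and 13.46 at 6 h to 33.06 at 72 h (log2 fold change 1.45, SE 0.21, edgeR adjusted p = 8.4e-09). Loops at GATA2 (-0.22, edgeR adjusted p = 0.18) and RUNX1 (loop32170, 0.41, 0.066) did not pass at 72 h. Nor did further loops at LYL1 (loop30704, 0.06, edgeR adjusted p = 0.72), SSBP2 (loop11624, 0.06, 0.84) and ERG (loop32225, 0.19, 0.48). A longer SSBP2 loop (loop11623) was not tested. With genes placed up to 10 kb from an anchor, 17 of 38 tested loops were called at 72 h, 3 higher and 14 lower, where 33.6% of all tested loops were called.

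The authors' deposited table classed all 12 loops of the TAL1 window as static. In the authors' deposited table, loop557 had a log2 fold change at 72 h of -0.50 (adjusted p = 0.003) and loop558 of -0.35 (0.0046). Both were thus static with an adjusted p under 0.05, so the class does not rest on that p alone. The authors gave 1 adjusted p per loop beside fold changes at 6 h and at 72 h. It is therefore not tied to the 72 h comparison, unlike the edgeR values here. In the LMO2 window the authors' deposited table had 2 gained loops, loop21663 (0.79, adjusted p = 0.0076) and loop21682 (0.70, 0.02), 1 lost loop, loop21679 (-0.83, 0.004), and 24 static loops. All 5 of these loops had the same direction in the fit used here, and the deposited fold changes were smaller in size. Other loops called here at 72 h had a deposited adjusted p above 0.05. They were loop21668 (0.13), loop21677 (0.27), loop21673 (0.33), loop21664 (0.056), loop543 (0.19) and loop560 (0.21). Loop21666 was classed as static with 0.58 (deposited adjusted p = 0.015). Of the 27 loops of the LMO2 window, 21 had deposited fold changes. Loop21670 was classed as static without any, so that class is not always a measured lack of change.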

How the data were processed

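Contacts between the anchors of 33914 loops were measured by in situ Hi-C in K562 in 42 samples, which are technical replicates and sequencing runs of 12 libraries (3 times with 4 biological replicates each). The authors deposited raw contact counts per loop in 30 columns, per the file headers. The submitters' processing notes name Juicer 1.5.6, DESeq2, DESeq and the build hg38, and loop calling is not given in the sources used here. The authors also deposited log2 fold changes, adjusted p-values and a class per loop, and the positions of the anchors, the other values of the file headers, which were turned to 1-based positions.

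Columns were summed into 12 libraries. The test was edgeR's quasi-likelihood test (version 4.0.16, R 4.3.3) with TMM scaling and filterByExpr (minimum count 10, minimum total 15; Benjamini-Hochberg over 24132 tested loops, threshold 0.05), with all 12 libraries in 1 model and no covariate. The prior count behind log2 fold changes was 2, and the SE is the size of the log2 fold change divided by the root of F. Within-library ratios add 0.5 to each count. Depth was 736929 to 1472197 contacts a library. The test was run first on simulated counts with known changes.

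Loops named with values have an end of TAL1, STIL, LMO2 or CAPRIN1 in an anchor or passed in at least 1 comparison, up to 8 loops a window by the p over the 3 times; loop21668, loop21672, loop21677, loop556 and the other loops named beyond these were added after their values were seen. The members, lists and rules were chosen with earlier results of these data known. Gene names and promoter sequences come from RefSeq tables of GRCh38.p14, used beside the hg38 positions of the loops; the gene table has no strand, so either end of a gene placed it at an anchor. Alternatives were total count scaling, RLE size factors, no filter, a loess correction for loop length (span 0.3), a replicate block, a term that parts replicates 1 and 2 from 3 and 4 (batch term), 72 h replicates 3 and 4 summed, each library left out, a threshold of 0.01, a gene margin of 10 kb, DESeq2 1.42.0 and, added after the data were seen, DESeq2 without independent filtering and each pair of replicates alone.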

Additional observations from a re-analysis of the deposited data

Results flagged for a closer look

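In loop560, 6 h replicate 4 had a normalized count of 57.91 and lay far from the other 6 h libraries, which lay between 70.76 and 72.55. The LMO2 window held 0.1079% of the contacts of 0 h replicate 3, against 0.1134% to 0.1145% in the other 0 h libraries. In 36 groups of 4 libraries examined for such single values, 2 were found, where chance gives about 1.8.

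Loop21665 and loop21672 moved in opposite directions in consecutive intervals. Loop21665 had a log2 fold change of 0.66 at 6 h against 0 h and of -0.63 at 72 h against 6 h, and loop21672 had 0.71 and -0.61. Both comparisons passed the edgeR test in both loops, they share the 6 h libraries, and the difference between the intervals was not tested.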

How the results depend on the processing

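Of 26 called fold changes of named loops, 619 values were computed under 25 alternatives (22 planned): 499 kept direction and call, 120 kept the direction without the call and 0 turned. Of the fold changes that were not called, 4 of 522 values passed. The falls of loop557, loop558, loop21668 and loop21679 and the rises of loop21663 and loop21666 at 72 h against 0 h were called in every alternative. DESeq2 did not call loop557 at 6 h (adjusted p = 0.089), loop543 (0.069), loop560 (0.116), loop21673 (0.0963) and loop21670 (0.0852) at 72 h against 0 h, or loop21679 (0.0554), loop21663 (0.173), loop21666 (0.0808), loop21664 (0.11) and loop21672 (0.166) at 72 h against 6 h. Loops called at 6 h against 0 h in the TAL1 window, 1 as reported, were 0 with total count scaling, the length correction, the threshold of 0.01, DESeq2 (with and without independent filtering) and either pair of replicates alone. In the LMO2 window, 3 as reported, they were 1 with the length correction and 0 with the threshold of 0.01, both DESeq2 fits and either pair. At 72 h against 0 h the TAL1 window, 4 as reported, had 2 with the threshold of 0.01, both DESeq2 fits and replicates 1 and 2 alone, and the LMO2 window, 9 as reported, had 5 with replicates 3 and 4 alone. From 6 h to 72 h the TAL1 window, 1 as reported, had 0 with replicates 1 and 2 alone, and the LMO2 window, 8 as reported, had 4 with the threshold of 0.01, 3 with both DESeq2 fits and 1 with replicates 3 and 4 alone. Loops at genes of the list of 15 called at 72 h, 7 as reported, were 17 of 38 tested with a gene margin of 10 kb. RLE size factors and a batch term left all 7 counts as reported. Without 1 library at a time, the TAL1 window had 0 to 2 at 6 h, 2 to 4 at 72 h and 1 to 2 from 6 h to 72 h, and the LMO2 window had 0 to 4, 7 to 10 and 4 to 8. The cause of these shifts was not tested. A fit on 1 pair also holds fewer libraries.

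Log2 normalized counts of libraries with the same replicate number were compared between times after each loop's mean at that time was subtracted. What remained was weakly correlated: correlations ranged from 0.0146 to 0.124, and 1 of 12 was above 0.1. Libraries with different numbers were not compared in this way. With a replicate block the counts were 1, 4 and 1 in the TAL1 window, 3, 9 and 8 in the LMO2 window and 7 for the complex, as without it. Low counts limit the long loops most, with as few as 1 contact in a library for loop21670.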
